A study of Mus musculus with 6 samples.

Results

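The genes described here are 10 genes of the major histocompatibility complex (MHC) class II pathway, taken from the 27998 genes of a single-cell count table of mouse lung by their symbols, each of which matched 1 row: H2-Aa, H2-Ab1, H2-Eb1, Cd74, H2-DMa, H2-DMb1, H2-DMb2, H2-Oa, H2-Ob and Ciita. They were followed across B cells, dendritic cells, macrophages and monocytes, endothelium, mesothelium, epithelium and fibroblasts. T cells, which in the mouse do not make class II, are given last as the level of background. Class II molecules are dimers of an alpha and a beta chain that show peptides from internalized proteins to CD4 T cells. The invariant chain, encoded by Cd74, escorts the dimer and blocks its groove. H2-DM then removes the invariant chain's last fragment and edits the peptide, and H2-O, made in B cells and some dendritic cells, restrains H2-DM. Ciita encodes the coactivator that switches these genes on. B cells, dendritic cells and macrophages are known for constant class II expression, and in lung alveolar type II epithelium also carries it, while in most other cells interferon gamma can induce it.

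The cells came from mice that carry the alleles SMA-GFP, Tbx4cre and RosaTdTomato. Green fluorescence marks cells with the smooth muscle actin promoter active, and tdTomato (Tm) marks the lineage in which Cre was expressed from Tbx4, a gene of lung mesenchyme. The labels name 6 samples: SMA+Tm+, SMA-Tm+ and SMA-Tm- cells from lungs on day 21 after bleomycin, a drug used to induce lung fibrosis, and the same 3 gates from normal lungs, labelled day 0. Cells of all 6 samples were sorted to lack Epcam, CD31 and CD45, which mark epithelium, endothelium and leukocytes, so the B cells, dendritic cells, macrophages, endothelium and epithelium described here are cells that this sort was set to remove, and what they share beyond their type was not tested. Neither the number nor the age of the mice is stated in the labels.

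The table pools all samples. Its barcodes end in suffixes 1 to 6 that nothing ties to a labelled sample, so day 21 was not compared with day 0, the gates were not compared, and no test was made. The table held 10410 barcodes, and 9919 cells with a median of 2699 unique molecular identifiers (UMIs, tags that count each captured RNA molecule once) remained after filtering. The median by suffix lay between 1783.5 and 3633.5 UMIs. Of the barcode sequences, 55 occurred under more than 1 suffix, 47 of them among the cells kept. Levels are the summed UMIs of a gene in a class, scaled to counts per 1000000 UMIs of that class (CPM). The libraries tag the 3′ end of each molecule, so levels are set side by side between genes as molecules, with no correction for length. Intervals are 95% intervals for counting error alone. They do not cover the spread between animals, and no value here has a replicate check.

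Classes were set by gates on other genes than the 10 described. B cells needed 2 UMIs of Cd79a and Cd79b, dendritic cells 2 of the genes Xcr1, Clec9a, Cd209a, Flt3 and Ccr7, endothelium 2 UMIs of Pecam1 and Cdh5, and fibroblasts 3 UMIs of Col1a2 and Col3a1. The gates gave 1677 B cells, 133 dendritic cells, 1881 macrophages and monocytes, 557 endothelial, 86 mesothelial and 107 epithelial cells, 2497 fibroblasts and 1063 T cells. Markers that the gates did not use were mostly highest in the class they mark: the B cell gene Ms4a1 stood at 1227 CPM in B cells, Cldn5 at 2811 CPM in endothelium, Sftpd at 1618 CPM in epithelium and Lrrn4 at 509.5 CPM in mesothelium. Dendritic cells were less clear. Their gene Batf3 was highest in them at 131 CPM, against 34.6 CPM in macrophages and monocytes, but Itgax stood at 81.3 CPM in dendritic cells, against 264 CPM in macrophages and monocytes. Zbtb46 stood at 38.4 CPM in dendritic cells, against 59.0 CPM in endothelium. Other classes had exceptions too. Krt18 stood at 165 CPM in epithelium, against 238 CPM in mesothelium, while Krt8 was highest in epithelium. Dcn stood at 2362 CPM in fibroblasts, against 3935 CPM in mesothelium, while Mgp and Pdgfra were highest in fibroblasts. In T cells Lat was highest at 436 CPM. Lck stood at 350 CPM and Cd2 at 268 CPM in T cells, against 409 and 330 CPM in natural killer cells. Ear1 was highest in alveolar macrophages (527 CPM), Apoe in C1q macrophages (8421 CPM), S100a4 in classical monocytes (1705 CPM) and Nr4a1 in nonclassical monocytes (976 CPM). Lyz2 was highest in classical monocytes (25456 CPM), above the other macrophage and monocyte kinds. Csf1r was highest in C1q macrophages (561 CPM), above nonclassical (515 CPM) and classical monocytes (230 CPM). Cells that met several gates (533, or 5.37%) and cells that met none (1123, or 11.3%) were set aside.

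The H2 genes lie together on chromosome 17 (GRCm38), from H2-Oa (34092340 to 34095234, plus strand) through H2-DMa (34119541 to 34139101), H2-DMb2 (34143307 to 34151555), H2-DMb1 (34153072 to 34160230), H2-Ob (34238903 to 34254414), H2-Ab1 (34257689 to 34269419) and H2-Aa (34282744 to 34287823, minus strand) to H2-Eb1 (34305867 to 34316674). Class II promoters are known to share an X box, bound by the RFX complex, and a Y box, bound by NF-Y, on which Ciita docks. Promoter windows of 250 bases before to 50 bases after a start were used for 7 of the 10 genes (RefSeq, GRCm38.p6). H2-Ab1, Cd74 and Ciita were left out, so the motif counts do not cover them. Those of H2-Aa and H2-Eb1 are shown for the peptide-binding chains, and those of H2-DMb1 and H2-DMb2 because these neighbours, both beta chains of H2-DM, had opposite patterns in B cells and in dendritic cells. Capitals mark matches, on either strand, to an X motif (AGCAACTGATG in H2-Eb1, with some of its letters free to vary), to the Y motif CTGATTGG, or to the shorter GATTGG within it, which was chosen after the sequences were seen.
H2-Aa (chr17:34287774-34288073, minus strand): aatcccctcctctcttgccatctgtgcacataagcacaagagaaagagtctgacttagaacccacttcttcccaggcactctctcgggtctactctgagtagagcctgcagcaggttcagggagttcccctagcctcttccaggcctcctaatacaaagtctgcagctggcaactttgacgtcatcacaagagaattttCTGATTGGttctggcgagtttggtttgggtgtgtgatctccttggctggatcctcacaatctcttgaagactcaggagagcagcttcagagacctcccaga
H2-Eb1 (chr17:34305617-34305916, plus strand): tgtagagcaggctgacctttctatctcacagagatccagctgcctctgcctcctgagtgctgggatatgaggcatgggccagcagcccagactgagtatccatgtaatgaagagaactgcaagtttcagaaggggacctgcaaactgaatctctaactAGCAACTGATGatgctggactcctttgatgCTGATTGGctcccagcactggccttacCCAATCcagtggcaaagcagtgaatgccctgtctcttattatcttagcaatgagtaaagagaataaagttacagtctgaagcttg
H2-DMb1 (chr17:34152941-34153240, plus strand): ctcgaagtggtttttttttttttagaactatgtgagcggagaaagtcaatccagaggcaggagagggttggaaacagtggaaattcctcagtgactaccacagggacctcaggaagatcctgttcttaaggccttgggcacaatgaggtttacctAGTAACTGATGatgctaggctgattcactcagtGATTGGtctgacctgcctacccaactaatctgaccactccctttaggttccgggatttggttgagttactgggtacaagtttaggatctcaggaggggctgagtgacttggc
H2-DMb2 (chr17:34144999-34145298, plus strand): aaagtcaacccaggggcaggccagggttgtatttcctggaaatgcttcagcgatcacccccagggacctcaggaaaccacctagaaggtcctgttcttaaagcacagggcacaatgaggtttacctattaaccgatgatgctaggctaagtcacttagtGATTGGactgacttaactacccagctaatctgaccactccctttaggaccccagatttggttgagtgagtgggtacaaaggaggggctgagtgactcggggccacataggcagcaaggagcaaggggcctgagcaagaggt
In H2-Eb1 the X motif began 92 bases and the Y motif 62 bases before the start. The H2-Aa window held the Y motif 51 bases before the start and no match to the X motif. H2-DMb1 matched the X motif 95 bases and GATTGG 62 bases before the start. H2-DMb2 matched GATTGG 91 bases before the start and had no full match to the X or the longer Y motif. It did hold a stretch that missed the X motif by a single letter. This stretch lay as far before GATTGG as the X motif did in H2-DMb1. The lack of an X match in H2-DMb2 thus rests on that letter, and whether it matters for binding was not tested. H2-Oa held both motifs, so that 2 of the 7 genes had both, while 3 had the X and 3 the Y motif and all 7 had GATTGG. The 7 genes had 8 windows, and a gene was counted if any of its windows matched. For H2-DMa, a window had no match and another held GATTGG 199 bases before the start. The shares that follow are by window, not by gene. Over 32851 promoter windows of this length, 0.968% held the X motif, 4.10% the Y motif, 0.0304% both, and 16.1% GATTGG. A match describes letters in a window and is not a site of binding.

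The chains that make up the class II molecule and its escort were the 4 most abundant of the 10 transcripts in each of the 7 classes. H2-Aa encodes the alpha chain and H2-Ab1 the beta chain of I-A, and H2-Eb1 the beta chain of I-E. With Cd74 they are summed here as the core level. It was 14148 CPM (14032 to 14266) in B cells, 22997 CPM (22687 to 23311) in dendritic cells, 6110.2 CPM (6059 to 6162) in macrophages and monocytes, 3894 CPM (3737 to 4055) in epithelium and 1133 CPM (1075 to 1193) in endothelium. Mesothelium held 240.0 CPM (198 to 288) and fibroblasts 80.1 CPM (74.0 to 86.5), against 191 CPM (177 to 206) in T cells. The order from dendritic cells down to endothelium had no overlap of counting intervals between neighbours, and mesothelium stood near the T cell level.

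The core level on the log2 scale was 6.21 (6.10 to 6.32) above T cells in B cells and 6.91 above them in dendritic cells. It was 4.998 above T cells in macrophages and monocytes, 4.35 (4.22 to 4.48) in epithelium and 2.57 (2.43 to 2.70) in endothelium. These gaps differed in size between suffixes but not in direction wherever a suffix held 20 or more cells of both classes. For B cells the smallest log2 ratio was 5.55 in suffix 2 and the largest 7.997 in suffix 4, and for endothelium the smallest was 1.85 in suffix 2 and the largest 3.78 in suffix 4. The T cell level itself moved between 80.0 CPM in suffix 4 and 298 CPM in suffix 2.

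**Figure D1:**
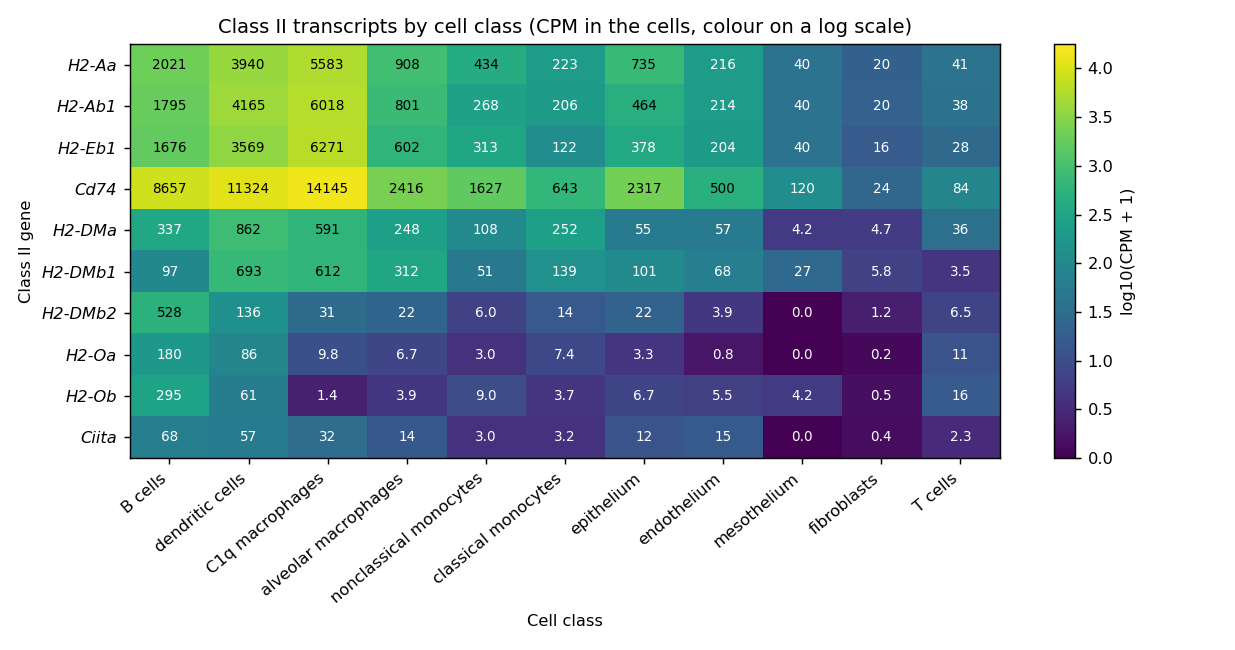
Level of each of the 10 class II genes (rows) in each cell class (columns), printed as CPM and coloured on a log10(CPM + 1) scale, with macrophages and monocytes split into their 4 kinds. The first 4 rows are high from B cells to endothelium, while H2-DMb2, H2-Oa and H2-Ob stand out in B cells and dendritic cells.

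**Figure D2:**
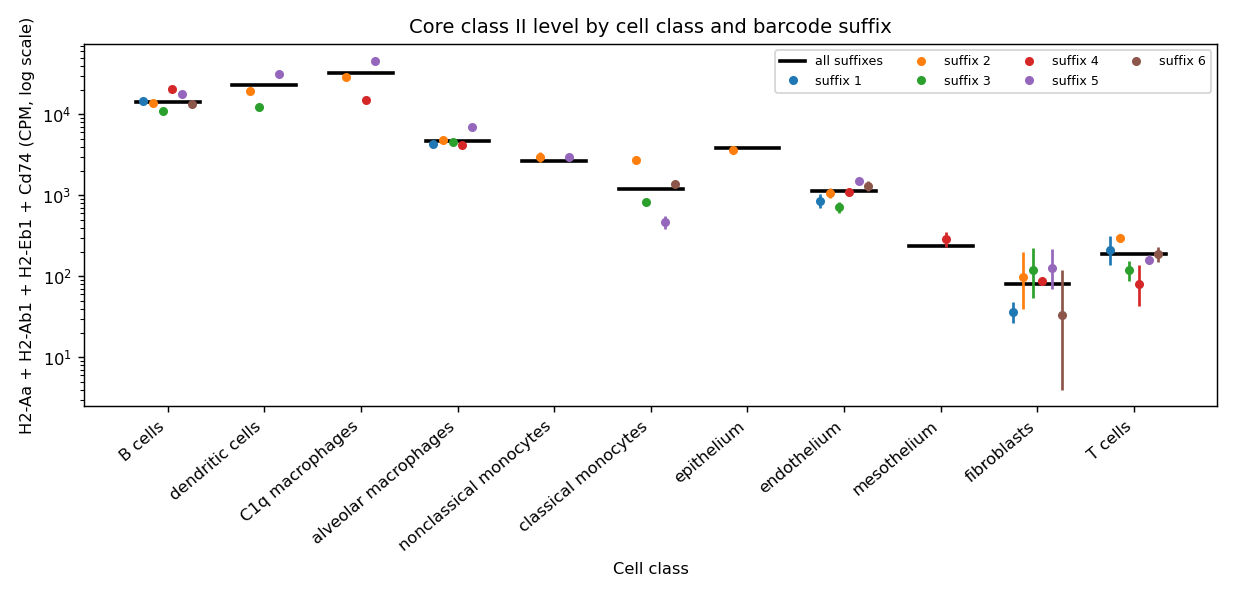
Core class II level (CPM, log scale) in each cell class, with black lines for all cells of the class and a point for each barcode suffix that holds 20 or more of its cells; bars are 95% Poisson intervals. Points of endothelium, from 713 to 1511 CPM, all lie above the T cell points, from 80.0 to 298 CPM, and fibroblast points overlap those of T cells.

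The 4 core genes followed the core level. Cd74 lies on chromosome 18 (60803848 to 60812652) and Ciita on chromosome 16 (10480059 to 10528418), apart from the others. H2-Aa stood at 2021 CPM in B cells, 3939.7 CPM in dendritic cells, 735 CPM in epithelium and 216 CPM in endothelium, against 40.5 CPM in T cells. H2-Ab1 stood at 1795 CPM in B cells, 4165 CPM in dendritic cells, 464 CPM in epithelium and 214 CPM in endothelium, against 38.5 CPM in T cells. The I-A alpha and beta transcripts were close in B cells, dendritic cells and endothelium. In epithelium the pooled H2-Aa level was above that of H2-Ab1, but in suffix 2, the suffix with 20 or more epithelial cells, they stood at 643 and 622 CPM. H2-Eb1 stood at 1676 CPM in B cells, 3569 CPM in dendritic cells, 378 CPM in epithelium and 204 CPM in endothelium, against 28.2 CPM in T cells. Cd74 was the most abundant, at 8657 CPM in B cells, 11324 CPM in dendritic cells, 2317 CPM in epithelium and 499.5 CPM in endothelium, against 84.0 CPM in T cells.

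A gene was counted as higher at a 4-fold ratio of CPM to T cells with 10 CPM added to both sides, among genes at 10 CPM or more in 1 of both classes. In B cells all 10 genes were higher, against a background of 2.58% of all genes. Their median log2 ratio was 4.30, and that of all genes counted was 0.15. In dendritic cells 9 of 10 were higher (background 4.46%), with a median of 4.97 against 0.05 over all genes, and H2-Ob was the exception. Macrophages and monocytes had 6 of 10 higher (background 7.2%), the 4 core genes with H2-DMa and H2-DMb1, with a median of 3.54 against 0.21. Endothelium had 5 of the 9 genes that reached the minimum (background 10.7%, median 2.16 against 0.52) and epithelium 5 of 10 (background 8.39%, median 1.99 against 0.12). In both the 5 genes were the core genes and H2-DMb1. None of 8 was higher in mesothelium (background 10.1%, median 0.01 against 0.39) and none of 7 in fibroblasts (background 11.1%, median -1.05 against 0.36). Genes 4-fold lower than T cells were counted by the same rule. With 10 CPM added, H2-Eb1, H2-DMb1, H2-DMb2, H2-Oa, H2-Ob and Ciita were too low in T cells to be called lower. H2-DMa, at 4.70 CPM in fibroblasts, against 35.8 CPM in T cells, was not called either. No class had a member called lower, which for most members follows from the rule. The background of such genes was 1.68% in B cells, 2.03% in dendritic cells, 2.17% in macrophages and monocytes, 2.94% in endothelium, 3.6% in mesothelium, 4.21% in epithelium and 3.74% in fibroblasts. The counts of the lower classes depended on the gates. With 1 more UMI or gene asked of every gate, the core level of T cells was 480.1 CPM. The counts were then 0 in endothelium and 3 in epithelium. Which cells entered or left each class was not tested.

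The depth of a class moves the share of its cells with a UMI, so each cell was thinned to 1000 UMIs. At least 1 core UMI was then found in 95.1% of B cells, 78.2% of dendritic cells, 85.6% of epithelial, 53.0% (48.5 to 57.5) of endothelial, 15.1% (8.30 to 24.5) of mesothelial and 4.54% (3.75 to 5.45) of fibroblast cells. T cells, the background, were at 13.7% (11.7 to 15.9). The thinned share of mesothelium lay within the interval of T cells and that of fibroblasts below it, so neither is read as expression. Before thinning the shares were 96.9% in B cells, 91.7% in dendritic cells, 94.4% in epithelium, 67.0% in endothelium, 46.5% in mesothelium and 12.8% in fibroblasts, against 28.6% in T cells. The median depth was 2007 UMIs in B cells, 6515 in dendritic cells, 5311 in epithelium, 1765 in endothelium, 5065.5 in mesothelium and 2884 in fibroblasts, against 2795 in T cells. Endothelium, the shallowest of these classes, thus had a larger share than the T cells at either depth.

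**Figure D3:**
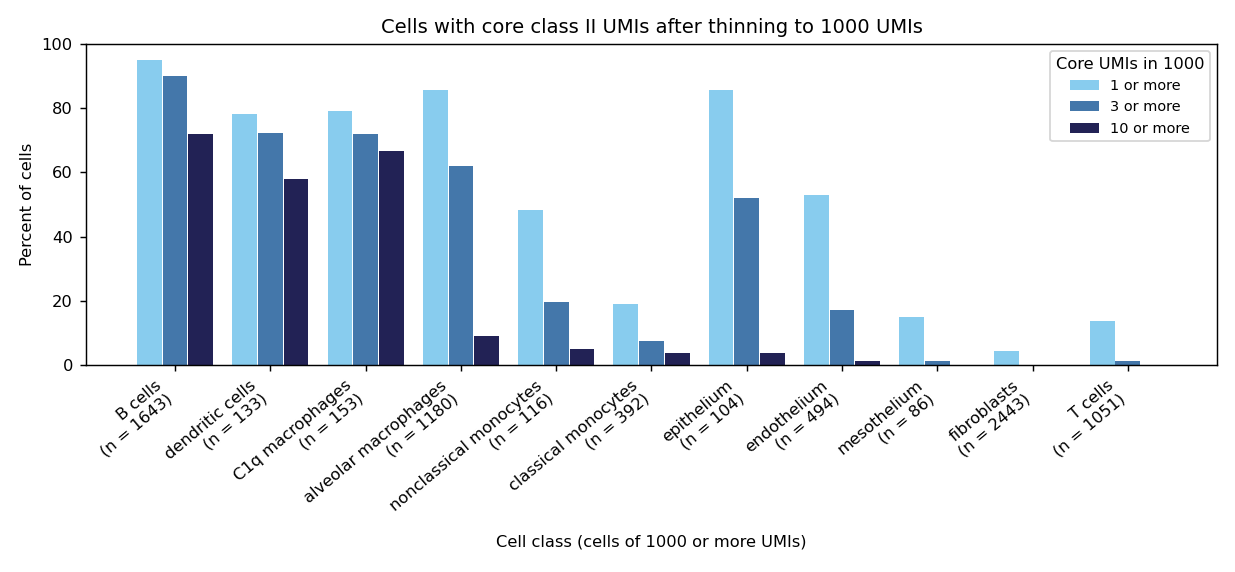
Percent of cells with 1 or more, 3 or more and 10 or more core class II UMIs after each cell was thinned to 1000 UMIs, by cell class, with the number of cells of 1000 or more UMIs under each name. Of B cells 71.9% had 10 or more, against 1.21% of endothelial cells and none of the T cells.

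B cells and dendritic cells differed most in H2-DMb1, H2-DMb2 and H2-Ob among the 10 genes. H2-DMb1 stood at 96.6 CPM (87.2 to 107) in B cells and 693 CPM (640 to 749) in dendritic cells, a log2 ratio of -2.84 (-3.03 to -2.66). H2-DMb2 went the other way, at 528 CPM (505 to 551) in B cells and 136 CPM (113 to 162) in dendritic cells, a log2 ratio of 1.95 (1.69 to 2.23). Both genes encode a beta chain for H2-DM. H2-Ob, the beta chain of H2-O, stood at 295 CPM in B cells and 61.5 CPM in dendritic cells (log2 2.26, 1.87 to 2.67), and H2-Oa, its alpha chain, at 180.1 CPM in B cells and 85.6 CPM in dendritic cells (log2 1.07, 0.73 to 1.43). H2-DMa, the alpha chain of H2-DM, stood at 337 CPM in B cells and 862 CPM in dendritic cells (log2 -1.35). The core level was 0.70 lower in B cells on the log2 scale. By the 4-fold rule, H2-Ob was higher in B cells, where 2.05% of all genes were, and H2-DMb1 was lower, where 3.47% of all genes were.

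These directions held in each of the 3 suffixes with 20 or more dendritic cells. In suffixes 2, 3 and 5 the log2 ratio of B cells over dendritic cells was -1.68, -3.34 and -2.92 for H2-DMb1 and 3.07, 2.25 and 1.78 for H2-DMb2. It was 2.81, 1.89 and 0.80 for H2-Oa and 2.97, 3.30 and 1.69 for H2-Ob. Suffix 5, with 40 of the dendritic cells, held much of the dendritic signal of the low genes: without it H2-DMb2 stood at 88.1 CPM, H2-Oa at 56.4 CPM and H2-Ob at 38.7 CPM in dendritic cells. H2-DMb1 and H2-DMb2 are near-identical in sequence, and reads that fit both cannot be placed with certainty, so their separate levels are uncertain.

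Of the UMIs of both H2-DM beta genes, H2-DMb2 made up 84.5% (83.1 to 85.9) in B cells, 16.4% (13.9 to 19.3) in dendritic cells and 6.69% (5.78 to 7.70) in macrophages and monocytes. It made up 17.6% (9.70 to 28.2) in epithelium, 17.5% (8.75 to 29.9) in fibroblasts and 5.49% (1.81 to 12.4) in endothelium. T cells had 64.7% (46.5 to 80.3), from 22 of 34 UMIs. B cells were thus the class with most of its H2-DM beta UMIs on H2-DMb2, and T cells, with few UMIs, had an interval that lay below that of B cells and above that of dendritic cells. Mesothelium had 13 UMIs of H2-DMb1 and none of H2-DMb2.

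**Figure D4:**
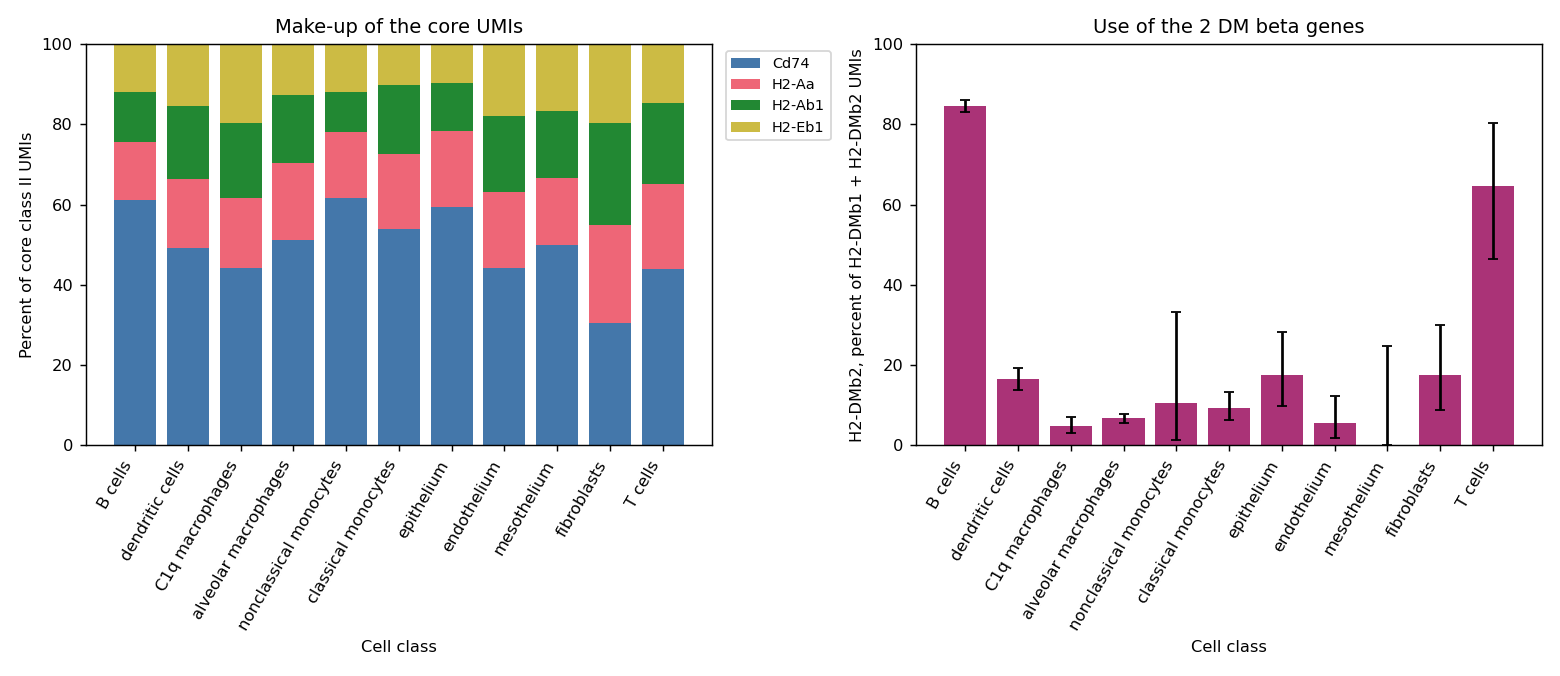
Left, the percent of core class II UMIs that came from Cd74, H2-Aa, H2-Ab1 and H2-Eb1 in each cell class. Right, H2-DMb2 as a percent of the H2-DMb1 and H2-DMb2 UMIs, with 95% binomial intervals; B cells are at 84.5% and dendritic cells at 16.4%.

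The share of Cd74 in the core UMIs also varied by class. It was 61.2% (60.8 to 61.6) in B cells, 59.5% (57.5 to 61.5) in epithelium, 49.2% (48.6 to 49.9) in dendritic cells, 48.4% in macrophages and monocytes and 44.1% (41.5 to 46.7) in endothelium, against 43.9% (40.1 to 47.8) in T cells. Of these classes B cells and epithelium had the highest shares, and their intervals overlapped. H2-Eb1 made up 9.70% of the core UMIs in epithelium, 15.5% in dendritic cells and 17.99% in endothelium, against 14.7% in T cells. Fibroblasts had the lowest share of Cd74, at 30.6% (27.03 to 34.3).

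Ciita itself was scarce everywhere. It stood at 68.0 CPM (60.1 to 76.6) in B cells, 57.1 CPM (42.6 to 74.9) in dendritic cells, 12.6 CPM (10.4 to 15.2) in macrophages and monocytes, 11.6 CPM (4.68 to 24.0) in epithelium and 14.9 CPM (8.999 to 23.3) in endothelium. T cells held 2.35 CPM (1.014 to 4.63), from 8 UMIs. The interval of each of the other 5 classes lay above that of T cells, although that of epithelium did so by little. Epithelial Ciita rested on 7 UMIs and was 4.87 CPM with 1000 genes and 5% mitochondrial UMIs as limits. Among macrophages and monocytes, C1q macrophages had 32.1 CPM and alveolar macrophages 13.9 CPM. Classical monocytes, at 3.15 CPM (1.16 to 6.86), and nonclassical monocytes, at 3.01 CPM (0.08 to 16.8), had intervals that overlapped that of T cells. B cells and dendritic cells could not be told apart (log2 0.25, -0.18 to 0.71). Endothelial Ciita rested on 19 UMIs and was 9.43 CPM without suffix 3. Fibroblasts had 3 UMIs in 2497 cells (0.37 CPM), and mesothelium had none, so up to 6.32 CPM could have been missed.

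Macrophages and monocytes were a mixture of 4 kinds that spanned most of the range. C1q macrophages (155 cells), named for the complement genes C1qa, C1qb and C1qc of their gate, had the highest core level over all suffixes, 32017 CPM. Alveolar macrophages (1210 cells) had 4727 CPM, nonclassical monocytes (120 cells) 2642 CPM and classical monocytes (396 cells) 1195 CPM. The core level of C1q macrophages was 2.76 (2.73 to 2.79) above that of alveolar macrophages on the log2 scale, and 2.61, 1.88 and 2.72 above it within suffixes 2, 4 and 5. Alveolar macrophages ranged between suffixes from 4129 CPM in suffix 4 to 6918 CPM in suffix 5 where 20 or more cells were present. C1q macrophages reached 45609 CPM in suffix 5, which held 66 of them, against 29036 CPM in suffix 2 and 15182 CPM in suffix 4. In suffix 4 they lay below B cells, which had 20448 CPM there. The first place of C1q macrophages rested on suffix 5: leaving each suffix out in turn, a comparison added after the data were seen, gave 18354 CPM (17913 to 18804) in the 89 C1q macrophages outside suffix 5, near the 18116 CPM (17768 to 18470) of the dendritic cells outside it.

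The level of macrophages and monocytes together moved with the mix of these kinds. In suffixes 1 to 6 the core level was 5137, 5935, 1829, 4808, 13568 and 2013 CPM. Classical monocytes made up 69.7% and 80% of the class in suffixes 3 and 6, the lowest, and C1q macrophages made up 20.9% in suffix 5, the highest. Without suffix 5 the level of H2-Ab1 in the class was 700.1 CPM, against 1078 CPM with it, and that of H2-Eb1 was 587 CPM, against 949.8 CPM with it.

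Not every accessory gene followed the core level among these cells. H2-DMa stood at 591 CPM in C1q macrophages, 248 CPM in alveolar macrophages, 252 CPM in classical monocytes and 108 CPM in nonclassical monocytes. The H2-DMa intervals of classical monocytes (230.1 to 276) and alveolar macrophages (235 to 261) overlapped, although the core level of classical monocytes was the lowest of the 4. For 1000 core UMIs, classical monocytes had 211 UMIs of H2-DMa and 116 of H2-DMb1, alveolar macrophages 52.5 and 65.9, and C1q macrophages 18.5 and 19.1. In classical monocytes 56.8% of cells had a UMI of H2-DMa and 15.2% a UMI of H2-Aa, at a median depth of 4771.5 UMIs, against 10.3% and 10.1% in T cells, at 2795. After thinning the shares of classical monocytes were 20.4% (16.5 to 24.7) for H2-DMa and 7.40% (5.01 to 10.5) for H2-Aa, against 3.52% and 3.71% in T cells. The H2-DMa level was similar in each suffix with 20 or more classical monocytes, from 226 CPM in suffix 2 to 306 CPM in suffix 6. Of the core UMIs of classical monocytes, 85.1% came from 30 of the 396 cells, and 212 cells had none.

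H2-Oa and H2-Ob were at or below the T cell level in macrophages and monocytes. H2-Oa stood at 6.94 CPM (5.31 to 8.92) in them, against 11.2 CPM (7.90 to 15.3) in T cells, and H2-Ob at 3.87 CPM (2.68 to 5.41), against 15.6 CPM (11.7 to 20.4) in T cells. In C1q macrophages, which had the highest core level, H2-Ob had 1 UMI in 155 cells. H2-DMb2 stood at 20.7 CPM (17.8 to 24.0) in macrophages and monocytes, against 6.46 CPM (4.05 to 9.78) in T cells.

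Within dendritic cells, those with Xcr1 or Clec9a, genes of the cross-presenting kind, were set against those with Cd209a, a gene of type 2 conventional and monocyte-derived dendritic cells. The first set held 53 cells with neither Cd209a nor Ccr7, and the second 44 cells with none of Xcr1, Clec9a and Ccr7. The 25 cells that carried genes of several of these sets, with a core level of 18126 CPM, were left out of both. The core level was 28553 CPM in the 53 cells with Xcr1 or Clec9a and 20407 CPM in the 44 cells with Cd209a (log2 0.48, 0.44 to 0.53). The 53 cells were not uniform. The 8 of them with Clec9a but not Xcr1 had a core level of 10167 CPM (9359 to 11027) and an H2-DMb1 level of 401 CPM, both below the Cd209a cells. The other 45, all with Xcr1, lay between 30678 and 32035 CPM by their combination of markers. Taken without regard to the other genes, all 73 cells with Xcr1 or Clec9a had a core level of 25318 CPM and all 68 cells with Cd209a had 19744 CPM. H2-DMb1 stood at 1007 CPM in cells with Xcr1 or Clec9a and 441 CPM in cells with Cd209a (log2 1.19, 0.89 to 1.499). H2-DMb2 stood at 108 CPM (78.7 to 145) in cells with Xcr1 or Clec9a and 192 CPM (143 to 253) in cells with Cd209a. H2-Ob had 42 UMIs in cells with Xcr1 or Clec9a, or 103 CPM, and 7 UMIs in cells with Cd209a, or 26.4 CPM (log2 1.97, 0.80 to 3.37). The wide interval reflects the few UMIs. Of all 133 dendritic cells, 11 had no core UMI, and the highest cell held 1404.

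B cells differed among themselves along Fcer2a, a gene of mature follicular B cells, and Vpreb3, a gene of immature B cells. The 263 cells with Fcer2a alone had a core level of 17335 CPM, and the 753 cells with Vpreb3 alone had 11154 CPM (log2 0.64, 0.60 to 0.67). H2-Aa stood at 2954 CPM in Fcer2a cells and 1181 CPM in Vpreb3 cells (log2 1.32, 1.23 to 1.41), and H2-Eb1 at 2463 CPM in Fcer2a cells and 949 CPM in Vpreb3 cells (log2 1.38). Cd74 differed less, at 9613 CPM in Fcer2a cells and 7789 CPM in Vpreb3 cells (log2 0.30, 0.26 to 0.35). The accessory genes were also lower in Vpreb3 cells, with H2-Oa at 267 CPM in Fcer2a cells and 117 CPM in Vpreb3 cells and Ciita at 99.98 CPM in Fcer2a cells and 58.1 CPM in Vpreb3 cells. Their median depths were 2015 UMIs in Fcer2a cells and 2007 UMIs in Vpreb3 cells.

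This difference was not the same in every suffix. The log2 ratio of Fcer2a over Vpreb3 cells for H2-Aa was 0.14 (-0.07 to 0.34) in suffix 2, 1.76 (1.54 to 1.98) in suffix 3 and 0.39 (0.23 to 0.56) in suffix 5. Vpreb3 cells made up 70.1% and 72.7% of B cells in suffixes 3 and 6, and 17.8% to 22.8% in the other suffixes. In Vpreb3 cells Cd74 made up 74.3% (73.4 to 75.3) and 76.1% (74.9 to 77.3) of the core UMIs in suffixes 3 and 6, and 57.9% and 58.5% in suffixes 2 and 5. H2-Aa stood at 775 and 898 CPM in Vpreb3 cells of suffixes 3 and 6, and at 2434 and 2512 CPM in those of suffixes 2 and 5. Vpreb3 cells of suffixes 3 and 6 thus stood apart from the Vpreb3 cells of suffixes 2 and 5. Cells with neither gene had a Cd74 share of 61.8% in suffix 3, and of 52.3%, 53.0% and 55.5% in suffixes 1, 2 and 5.

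**Figure D5:**
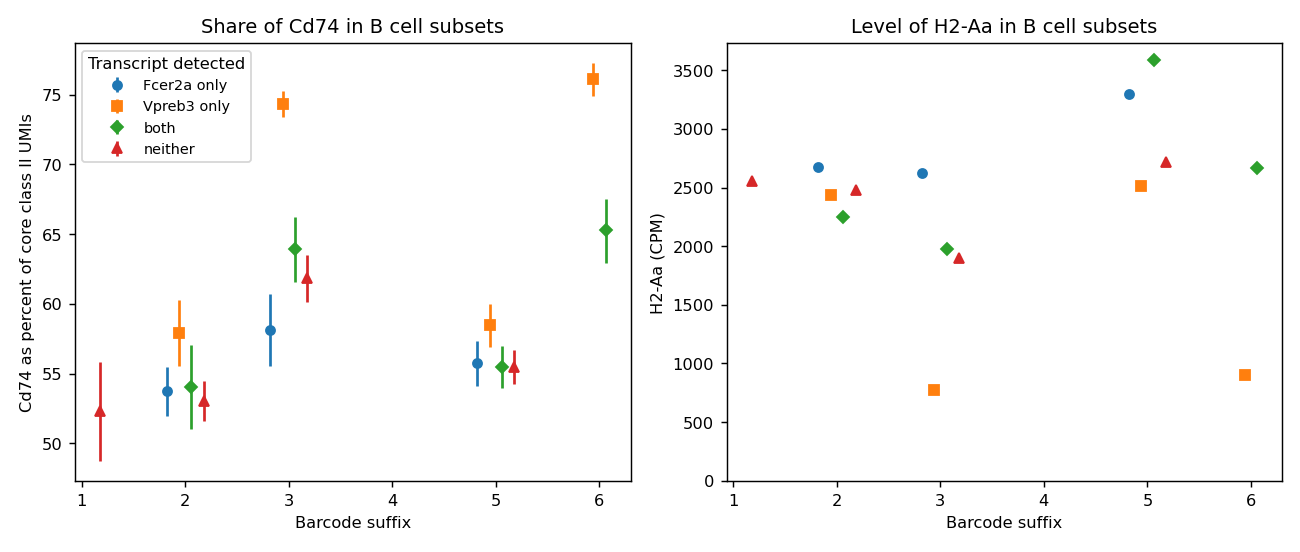
B cells split by the detection of Fcer2a and Vpreb3, by barcode suffix, for subsets of 20 or more cells. Left, Cd74 as a percent of core class II UMIs with 95% binomial intervals; right, the level of H2-Aa in CPM. Vpreb3 cells of suffixes 3 and 6 have a Cd74 share of 74.3% and 76.1% and an H2-Aa level under 1000 CPM, while those of suffixes 2 and 5 lie near the other subsets.

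Endothelium held class II transcripts at a lower level in many cells. It had 1440 core UMIs, of which the highest cell held 29, and 184 of 557 cells had none. H2-DMb1 stood at 67.7 CPM (54.1 to 83.6) in endothelium, against 3.52 CPM (1.82 to 6.16) in T cells, and H2-DMa at 56.6 CPM (44.3 to 71.3) in endothelium, against 35.8 CPM (29.8 to 42.8) in T cells. Natural killer cells had 32.6 CPM (19.3 to 51.5) of H2-DMb1. The genes that stood out in B cells were low in endothelium: H2-DMb2, H2-Oa and H2-Ob together held 10.2 CPM (5.45 to 17.5) in endothelium, against 33.2 CPM (27.4 to 39.9) in T cells. The alveolar macrophage genes Chil3, Ear1 and Ear2 together stood at 33.8 CPM (24.5 to 45.6) in endothelium, against 19.97 CPM (15.5 to 25.3) in T cells. The core level was 5.92-fold higher in endothelium than in T cells, and the part of macrophage RNA in it was not tested.

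The endothelial level differed by subset, each taken as the cells with the genes of 1 subset alone. Cells with Gpihbp1, a gene of capillaries, had a core level of 1819 CPM (1657 to 1993; 157 cells). Cells with Car4 or Ednrb, genes of the large alveolar capillary cells known as aerocytes, had 423 CPM (339 to 522; 94 cells), and cells with Vwf, a gene of larger vessels, 877 CPM (675 to 1120; 44 cells). The 196 cells with genes of several subsets had 1199 CPM (1111 to 1291). The core level was thus 2.10 higher on the log2 scale in Gpihbp1 cells than in Car4 or Ednrb cells (1.77 to 2.45), and 3.05 higher in suffix 5, the suffix with 20 or more cells of both. H2-Aa, H2-Ab1, H2-Eb1 and Cd74 each had a log2 ratio between 2.01 and 2.16 over all suffixes. Gpihbp1 cells alone ran from 1343 CPM in suffix 1 to 2436 CPM in suffix 5.

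Epithelial class II came mostly from cells with Lamp3 or Slc34a2, genes of alveolar type II cells. These 74 cells had a core level of 3828 CPM (3639 to 4024), and each had a core UMI. The 23 cells with genes of several epithelial subsets, kept apart, had 1935 CPM (1726 to 2162). The 4 cells with Foxj1 or Ccdc153, genes of ciliated cells, had 1 core UMI in all. A further 6 cells with none of the subset genes held 489 of the 2341 core UMIs, or 23301 CPM, and 8 of the 13 UMIs of H2-DMb2. In Lamp3 or Slc34a2 cells H2-DMb2 was at 7.46 CPM (1.54 to 21.8), against 6.46 CPM in T cells, and H2-DMb1 at 102 CPM (73.2 to 138), against 3.52 CPM in T cells. H2-Oa had no UMI in these 74 cells, so up to 7.46 CPM could have been missed.

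Fibroblasts had little class II, and a large share of it lay in few cells. Of their 648 core UMIs, 270 (41.7%) came from 3 of 2497 cells, which held 202, 50 and 18. The other cells had 46.8 CPM, and 87.2% of all fibroblasts had no core UMI. The core level was 1.26 lower in fibroblasts than in T cells on the log2 scale over the whole table. By suffix, fibroblasts lay below T cells in suffixes 1, 2, 5 and 6 and close to them in suffixes 3 and 4. Suffix 4 held 1813 of the fibroblasts and 43 of the T cells, and there the core level was 86.9 CPM (80.0 to 94.3) in fibroblasts, against 80.0 CPM (42.6 to 137) in T cells. In suffix 1 it was 36.3 CPM (26.3 to 48.9) in fibroblasts, against 213 CPM (139 to 312) in T cells. In suffixes 2, 5 and 6 it was 98.3, 128 and 32.98 CPM in fibroblasts (42, 36 and 30 cells), against 298, 161 and 187 CPM in T cells, with overlapping intervals in suffix 5, and in suffix 3 it was 119 CPM in both. The alveolar macrophage genes Chil3, Ear1 and Ear2 together stood at 42.9 CPM in fibroblasts, against 19.97 CPM in T cells, and their part in the fibroblast level was not tested.

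Fibroblast subsets differed. The core level was 39.8 CPM (30.2 to 51.6) in cells with Hhip or Aspn, 74.8 CPM (65.0 to 85.7) in cells with Npnt or Slc7a10 and 40.7 CPM (30.7 to 53.0) in cells with Pi16 or Scara5, each with the genes of that subset alone. The 381 cells with genes of several subsets had 173 CPM (153 to 194). Ciita had no UMI in the 560 cells with Hhip or Aspn or in the 868 cells with Npnt or Slc7a10, so up to 2.10 and 1.08 CPM could have been missed. Mesothelium, the lining of the pleura, had a core level of 0.33 above T cells on the log2 scale (0.03 to 0.62), and 2 of its 86 cells, with 35 and 10, held 39.5% of the 114 core UMIs. Without suffix 4, which held 54 of the mesothelial cells, the ratio was -0.54, while within suffix 4 the core level was 287 CPM in mesothelium, against 80.0 CPM in T cells (log2 1.84, 0.999 to 2.80). H2-DMb1 stood at 27.4 CPM (14.6 to 46.8) in mesothelium, against 3.52 CPM in T cells, from 13 UMIs, a level near the 32.6 CPM of natural killer cells. H2-DMa at 4.21 CPM (0.51 to 15.2) in mesothelium, against 35.8 CPM in T cells.

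T cells themselves showed an uneven make-up. For 1000 core UMIs they had 187 UMIs of H2-DMa, 58.4 of H2-Oa and 81.4 of H2-Ob, where B cells had 23.8, 12.7 and 20.8. H2-DMa stood between 18.5 and 40.9 CPM in T cells of the 6 suffixes. Of the 651 core UMIs of T cells, 34.4% came from 13 cells, and the highest held 48. Natural killer cells, another lymphocyte class, had a core level of 212 CPM.

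Other genes of the pathway were counted by the same rule. The list of regulators of class II transcription held 12 genes. The RFX genes Rfx5, Rfxank and Rfxap and the NF-Y genes Nfya, Nfyb and Nfyc were 4-fold higher in none of the 7 classes. Their T cell levels, from 7.05 CPM for Rfx5 to 30.5 CPM for Rfxap, left little or no room for a lower call with 10 CPM added. In some classes, among them dendritic cells, Rfx5 and Rfxank were below the minimum of 10 CPM and were not counted. Spi1 and Irf8, which encode transcription factors of B and myeloid cells, were the 2 regulators higher in B cells (of 12 counted), in dendritic cells (of 10) and in macrophages and monocytes (of 10), against backgrounds of 2.58%, 4.46% and 7.2% of all genes. Spi1 stood at 144 CPM in B cells, 518 CPM in dendritic cells and 548 CPM in macrophages and monocytes, against 7.05 CPM in T cells. Irf8 stood at 331 CPM in B cells, 996 CPM in dendritic cells and 179 CPM in macrophages and monocytes, against 15.3 CPM in T cells. No regulator of the list was higher in endothelium (of 11 counted, background 10.7%) or epithelium (of 10 counted, background 8.39%).

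Of 11 genes of antigen processing and traffic, 11 were higher in macrophages and monocytes (background 7.2%), 6 of 10 counted in dendritic cells (background 4.46%) and 5 of 8 counted in B cells (background 2.58%). Ctsd, a cathepsin gene, was lower in B cells, at 28.8 CPM, against 158 CPM in T cells (background of lower genes 1.68%). The cathepsin gene Ctss, whose protease cuts the invariant chain in antigen-presenting cells, stood at 302 CPM in B cells, 595 CPM in dendritic cells and 2236 CPM in macrophages and monocytes, against 103 CPM in T cells. It was lower in endothelium, at 14.2 CPM. Ifi30, which encodes a lysosomal thiol reductase, stood at 210.2 CPM in B cells, 226 CPM in dendritic cells and 191 CPM in macrophages and monocytes, against 18.2 CPM in T cells, and at 6.29 CPM in endothelium. Ctsl, a further cathepsin gene, stood at 149 CPM in endothelium, 128 CPM in macrophages and monocytes and 349 CPM in fibroblasts, against 6.17 CPM in T cells. March1, which encodes a ligase that removes class II from the surface, stood at 119.9 CPM in B cells, against 1.47 CPM in T cells. Endothelium and epithelium each had 3 of 10 counted processing genes higher, against backgrounds of 10.7% and 8.39%. Classes with a core level near or below that of T cells had such genes too. Mesothelium had 3 of 10 counted higher (background 10.1%) and fibroblasts 5 of 10 (background 11.1%). The list median in macrophages and monocytes was 3.48.

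Costimulatory genes, the second signal that class II presentation is known to need for T cell priming, differed in which member was high in which class. Of 7, 2 of 5 counted were higher in B cells (Cd40 and Cd83; background 2.58%), 2 of 5 in dendritic cells (Cd86 and Cd83; background 4.46%) and 1 of 3 in macrophages and monocytes (Cd274; background 7.2%). Cd274, which encodes the inhibitory ligand PD-L1, stood at 106 CPM in macrophages and monocytes, against 12.6 CPM in T cells. By kind it stood at 155 CPM in alveolar macrophages, 22.3 CPM in C1q macrophages, 33.1 CPM in nonclassical and 2.10 CPM in classical monocytes. Cd86 stood at 45.9 CPM in B cells, 114 CPM in dendritic cells and 0.79 CPM in endothelium, against 5.87 CPM in T cells. Cd83 stood at 114 CPM in B cells, 121 CPM in dendritic cells and 0.79 CPM in endothelium, against 9.40 CPM in T cells. The pooled class of macrophages and monocytes hid its C1q macrophages, which had 107 CPM of Cd86 and 185 CPM of Cd83. These levels lay near or above those of dendritic cells. Cd40 stood at 57.4 CPM in B cells and 26.7 CPM in endothelium, against 0.88 CPM in T cells. None of the list was 4-fold higher in endothelium or epithelium by the rule with 10 CPM added. Fibroblasts had 2 of the 3 counted genes higher (background 11.1%), Cd40 at 36.3 CPM, and Icosl at 55.2 CPM, against 1.76 CPM in T cells. Of 6 class I genes, present on nearly all cells, all were counted and none was 4-fold higher in any class (backgrounds 2.58% to 11.1%). B2m was lower in epithelium, at 556 CPM, against 2650 CPM in T cells (background of lower genes 4.21%). H2-K1 was lower in fibroblasts, at 267 CPM, against 1257 CPM in T cells (background of lower genes 3.74%).

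Likeness to the core level was measured as Pearson's r of log2(CPM + 10) over 46 units, each a class within a suffix with 20 or more cells, among 8797 genes. Units share libraries and depth, and genes of the core are part of the measure. Among the 10 genes, the accessory H2-DMa ranked 5 with r = 0.91, H2-DMb1 6 with 0.88 and Ciita 8 with 0.82, after the 4 core genes. H2-DMb2 ranked 39, H2-Oa 246 and H2-Ob 266, with r = 0.72, 0.54 and 0.53. The genes outside the list that were most like the core level were Cd83 (r = 0.83), Wdfy4 (0.81), Ier5 (0.81), Nuak2 (0.80), Cd86 (0.80), Unc93b1 (0.80), Ctsh (0.80), Btk (0.80), Ncf1 (0.80) and Ifi30 (0.79).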

How the data were processed

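Droplet libraries (10x Genomics Single Cell 3′ v2) from 6 sorted samples were deposited by the authors as 1 table of raw UMI counts and 1 normalized table, a signal on a linear scale in which the authors scaled each barcode to the same total. The build mm10 and the tools STAR (2.5.1) and Cell Ranger (1.3.0) are named in the submitters' processing notes, with no settings. Barcodes with at least 500 genes and at most 10% mitochondrial UMIs were kept (9994), and 75 doublets called by Scrublet (scanpy 1.11.5) within each suffix were removed. In the 9919 cells, suffixes 1 to 6 held 1320, 1980, 1372, 2990, 1574 and 683 cells.

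Classes were gated on raw UMIs, 1 class a cell, and UMIs were summed by class and scaled to CPM (numpy 2.4.6, scipy 1.17.1, pandas 2.3.3). Intervals were exact Poisson for levels, Clopper-Pearson for shares and conditional binomial for ratios, and cover counting error only; a count of 0 was given the limit of 3 counts. Folds used 10 CPM on both sides. The normalized signal served only for means over cells. The rule for named genes was all 10 members, with pathway genes counted in full and up to 4 of those past 4-fold named for a list; others given beside them were chosen after their values were seen. The members and lists were chosen with earlier results of these data known. H2-Ea-ps, Ighm, Ighd and Igkc were not analysed here. The calculation was tested on simulated counts. Barcodes are tied to no replicate, so no p-value was computed.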

Additional observations from a re-analysis of the deposited data

How the results depend on the processing

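No paired analysis was possible because the barcodes carry no replicate and no test was made. Values here are log2 ratios of the core level to T cells, or counts of the 10 genes 4-fold above T cells. Letting a barcode enter every class whose gate it met gave 2.47 for B cells, 3.31 for dendritic cells, 1.43 for macrophages and monocytes, 0.70 for endothelium, 1.28 for epithelium, -2.92 for fibroblasts and a reversed -2.87 for mesothelium, and the counts were 1 in macrophages and monocytes and 0 in endothelium and epithelium. Asking for 1 more UMI or gene in every gate gave 4.88 for B cells, 5.86 for dendritic cells, 3.79 for macrophages and monocytes, 1.24 for endothelium, 2.63 for epithelium, -2.53 for fibroblasts and a reversed -0.70 for mesothelium, with counts of 0 in endothelium and 3 in epithelium. The core level of T cells themselves was 2323 and 480.1 CPM under these settings in turn, against 191 CPM. The first setting counts cells that met several gates among T cells, and the cells that moved under the other were not tested. The stricter filter (1000 genes, 5% mitochondrial UMIs) gave 6.06 for B cells, 2.41 for endothelium and 4.64 for epithelium, and a count of 3 in endothelium. NK cells in place of T cells, added after seeing the data, gave 6.06 for B cells, 6.76 for dendritic cells, 4.85 for macrophages and monocytes, 2.42 for endothelium and 4.20 for epithelium. Means over cells gave 6.65 for dendritic cells and -1.77 for fibroblasts, and gating dendritic cells by 2 UMIs gave 6.55. With 1 CPM added to both sides, 1 gene was counted in mesothelium.

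Leaving out each suffix in turn gave 5.93 to 6.50 for B cells, 6.43 to 7.24 for dendritic cells, 4.34 to 5.29 for macrophages and monocytes, 2.26 to 2.87 for endothelium, 4.12 to 4.67 for epithelium, -1.98 to -0.97 for fibroblasts and -0.54 to 0.71 for mesothelium, reversed without suffix 4. Of 710 other values of single genes by class, 539 stayed within the interval of the value reported and 65 moved by over 1.5 times. The cause was not tested. Genes under about 10 CPM rest on few UMIs.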

Other observations

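The cells set aside also held class II transcripts. The 1123 cells that met no gate had a core level of 6023 CPM (5928 to 6120), and 37.8% of them had a core UMI, against 28.6% of T cells, at median depths of 1681 and 2795 UMIs. Their H2-DMb1 stood at 176 CPM, their H2-DMb2 at 67.1 CPM and their Ciita at 17.5 CPM. The 533 cells that met several gates had a core level of 6825 CPM (6739 to 6912), and 81.2% of them had a core UMI, at a median depth of 5649 UMIs.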
